A study of Mus musculus with 9 samples.

Results

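Selenoprotein P and 9 antioxidant genes were followed through 3 sorted fractions of mouse bone marrow endothelium. The genes were *Sepp1* (now named *Selenop*), *Gpx1*, *Gpx3*, *Gpx4*, *Txnrd1*, *Cat*, *Sod1*, *Sod2*, *Hmox1* and *Nqo1*. They were matched by symbol to 10 of the 17232 genes in the table, and all 10 passed the filter on low values (at least 0.1 RPKM, reads scaled for gene length and library depth, in at least 3 libraries), as did 16364 genes in all. The 10 symbols were chosen by their role with the RPKM values and the differences between fractions of these same libraries known, so their levels and differences are a description and carry no test. Cells came from digested bone marrow of *Nestin*-GFP mice, in which a *Nestin* promoter transgene drives GFP, also outside the endothelium. *Nestin*-GFPbright AECs and *Nestin*-GFPdim AECs were arterial endothelial cells sorted as CD45- Ter119- CD31+ PDPN- Sca-1bright and separated by their GFP, and SECs were sinusoidal endothelial cells sorted as CD45- Ter119- CD31+ PDPN+ Sca-1dim. Each fraction gave 3 libraries, numbered 1, 3 and 4, and no fraction was treated. The labels used here give no age and do not say whether the libraries of a fraction came from separate animals, so p values measure the spread between these libraries, which may be technical.

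Selenoprotein P is a secreted glycoprotein that carries selenium in plasma. Cells take it up through receptors of the low density lipoprotein receptor family and reuse its selenium to make their own selenoproteins, among them the glutathione peroxidases *Gpx1*, *Gpx3* and *Gpx4* and the thioredoxin reductase *Txnrd1*. These enzymes, catalase (*Cat*) and the superoxide dismutases (*Sod1*, *Sod2*) remove peroxides and superoxide, whereas *Hmox1* breaks down haem and *Nqo1* reduces quinones. Both of the last are well known targets of the transcription factor Nrf2. Sinusoidal endothelium of the liver and bone marrow is known as a scavenger endothelium, which clears macromolecules from blood.

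Selenocysteine is written into these messages as an in-frame UGA codon, TGA in DNA, which would otherwise end translation. In the GENCODE M21 annotation of GRCm38, 5 of the 10 genes carry annotated selenocysteine codons and 5 (*Cat*, *Sod1*, *Sod2*, *Hmox1* and *Nqo1*) carry none. *Sepp1* has 10 of them among 380 codons, and *Gpx1*, *Gpx3*, *Gpx4* and *Txnrd1* have 1 each. The coding stretches below, all on the plus strand and 5′ to 3′, show how *Sepp1*, the highest of the 10 genes in SECs, differs from the enzymes: 7 of its selenocysteine codons lie in the last 192 coding bases of exon 5, whereas each enzyme has a lone codon. Capitals mark the selenocysteine codons.
Sepp1 (chr15:3279516-3279707, GRCm38): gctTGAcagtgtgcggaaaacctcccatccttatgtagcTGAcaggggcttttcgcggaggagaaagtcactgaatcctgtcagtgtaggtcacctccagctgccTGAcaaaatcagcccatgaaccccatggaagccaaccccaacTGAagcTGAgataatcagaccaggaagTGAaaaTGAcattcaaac
Gpx1 (chr9:108339436-108339468, GRCm38): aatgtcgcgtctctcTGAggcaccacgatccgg
Gpx3 (chr11:54907241-54907273, GRCm38): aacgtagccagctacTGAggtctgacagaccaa
Gpx4 (chr10:80054722-80054754, GRCm38): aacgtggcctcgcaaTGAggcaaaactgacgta
Txnrd1 (chr10:82896022-82896042, GRCm38): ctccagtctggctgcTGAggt
The codon is number 47 of 201 in *Gpx1*, in exon 1 of 2, and number 73 in both *Gpx3* (of 226, exon 2 of 5) and *Gpx4* (of 197, exon 3 of 7). In *Txnrd1* it is number 498 of 499, in exon 14 of 14, so that a single glycine codon follows it. In *Sepp1* the first selenocysteine is codon 59, in exon 2, and the other 9 lie between codons 259 and 377 of exon 5.

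Library depth ranged between 13895090 and 73474534 reads in listed genes. The arterial markers (*Gja4*, *Gja5*, *Bmx*, *Efnb2*, *Sema3g*, *Hey1*, *Sox17*) summed to 228 to 978 RPKM in AEC libraries and to 9.24 to 19.0 RPKM in SEC libraries. The sinusoidal markers (*Stab2*, *Stab1*, *Flt4*, *Vcam1*, *Sele*, *Dnase1l3*, *Ackr1*, *Pdpn*) summed to 49.98 to 975 RPKM in AEC libraries and to 3239 to 5557 RPKM in SEC libraries. The highest of those AEC sums was that of the *Nestin*-GFPdim library numbered 3. *Pdpn*, the gene behind the antibody used to gate SECs, was at most 0.866 RPKM in any library, and at 0 reads in 5 of the 9. Neutrophil markers took between 0.561% and 17.7% of the reads of AEC libraries and between 0.00713% and 8.94% of SEC libraries, with the 3 libraries numbered 1 highest in their fractions and SEC library 3 lowest of all. Macrophage markers took at most 0.0176% of the reads of any library. Smooth muscle and pericyte markers (*Acta2*, *Myh11*, *Tagln*, *Myl9*, *Rgs5*, *Pdgfrb*, *Cspg4*, *Higd1b*) summed to 19.3 to 380 RPKM in AEC libraries and to 5.08 to 9.96 RPKM in SEC libraries, and limma called 3 of these 8 genes higher in AECs.

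The difference between AECs and SECs was largest for *Sepp1*, which was lower in every AEC library than in any SEC library, and next largest for *Hmox1*. *Gpx1* stood higher in AECs on average, while *Gpx4*, *Cat*, *Sod1*, *Sod2* and *Txnrd1* differed by at most 1.17-fold between AECs and SECs in the fit. *Sepp1* was the only gene of the 10 with AEC and SEC libraries that did not overlap. Over all genes tested, 5.77% had the 6 AEC libraries below the 3 SEC libraries and 4.68% had them above. Because the 10 genes were chosen with these values known, nothing is read from that count.

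**Figure D1:**
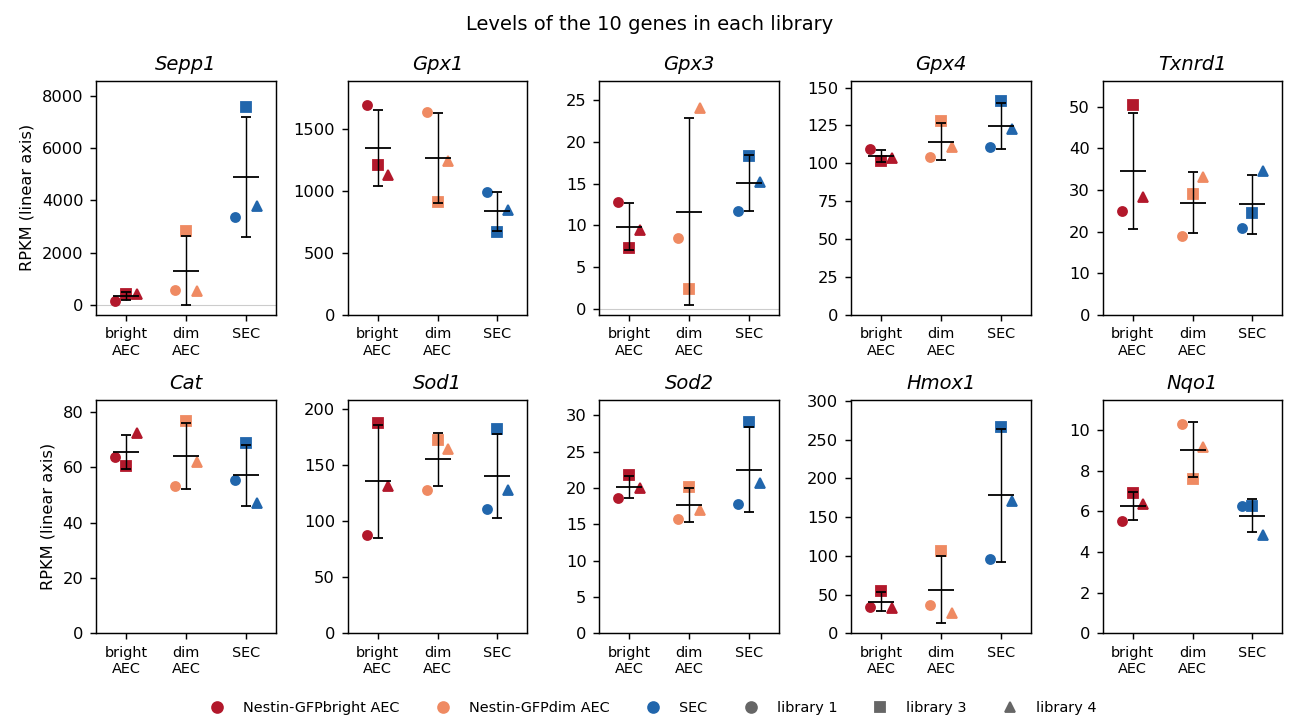
Level of each of the 10 genes in the 9 libraries, in RPKM on a linear axis. Points are libraries (circle 1, square 3, triangle 4) and bars show the mean and SD of 3 libraries; *Sepp1* and *Hmox1* stand highest in SECs, and *Nestin*-GFPdim library 3 lies closest to the SEC libraries for both.

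*Sepp1* (chromosome 15, 3268547 to 3280508) was among the most abundant messages of SECs. Its level was 146, 400 and 433 RPKM in *Nestin*-GFPbright AEC libraries 1, 3 and 4 and 579, 2828 and 527 RPKM in *Nestin*-GFPdim AEC libraries 1, 3 and 4, against 3348, 7548 and 3790 RPKM in SEC libraries 1, 3 and 4. All bright libraries lay below all dim libraries, and all dim libraries below all SEC libraries, although dim library 3 lay much nearer to the SEC libraries than to the other dim ones. Over all genes tested, 3.85% had the 3 bright libraries below the 3 dim libraries and 3.62% above, 7.47% in all. The share of all genes with bright or dim libraries apart from SEC libraries was not counted, here or below.

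In SEC libraries *Sepp1* took 1.02% to 2.05% of all reads in listed genes and ranked between the 4th and 11th most abundant gene per length. In AEC libraries it took 0.0352% to 0.838% of the reads, and its rank ran from 11 to 423. The mean was 819 ± 996 in the 6 AEC libraries and 4895 ± 2307 RPKM in the 3 SEC libraries (± SD, n = 6 and n = 3). On the log2(RPKM + 1) scale, the difference between AECs and SECs in the fit across all genes was -3.11 ± 0.65 (standard error), or 8.63-fold lower in AECs. It was -3.96 ± 0.75 for *Nestin*-GFPbright AECs against SECs, -2.26 ± 0.75 for *Nestin*-GFPdim AECs against SECs, and -1.69 ± 0.75 between bright and dim AECs.

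Dim library 3 weighed on these values. Its sinusoidal markers were also the highest of the AEC libraries, with *Stab2* (a scavenger receptor of sinusoids) at 36.0 RPKM, against 0.289 to 9.74 RPKM in the other AEC libraries and 202 to 277 RPKM in SECs. Without that library the difference was -3.50 ± 0.50 for AECs against SECs, -3.05 ± 0.62 for dim AECs against SECs, and -0.91 ± 0.62 for bright against dim AECs. Without SEC library 3, the SEC library with the most *Sepp1*, the difference between AECs and SECs was -2.75 ± 0.74. Bright library 1 had the least *Sepp1*. Without it the difference was -3.46 ± 0.80 for bright AECs against SECs and -1.19 ± 0.80 for bright against dim AECs. The 10 pan-endothelial markers, *Pecam1* and *Cdh5* among them, summed to 704 RPKM in bright library 1. Their sums were 1318 to 3604 RPKM in the other libraries. The part of endothelial content in the order of bright and dim libraries was not tested. Fewer cells of a type and less RNA per cell cannot be told apart in such bulk libraries, and the part of sinusoidal cells in the AEC values was not tested.

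A ratio taken within a library does not depend on how libraries were scaled. Per length, *Sepp1* stood at 0.0862 to 3.10 times *Gpx1* in the 6 AEC libraries and at 3.39 to 11.3 times *Gpx1* in the 3 SEC libraries. *Sepp1* was thus the more abundant of the pair in all SEC libraries and in dim library 3, and the less abundant in the other 5 AEC libraries. *Ccdc152* overlaps the end of *Sepp1* on the other strand in GENCODE M21, and the library kit does not mark strand. How reads in the shared stretch were counted was not stated. *Ccdc152* held at most 957 reads in any library, far below the 19117 reads of *Sepp1* in its lowest library.

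The 3 tested genes whose centred log2(RPKM + 1) profile over the 9 libraries was nearest to that of *Sepp1*, among 5701 candidates with at least 10 RPKM in some fraction, were *Lgmn*, *Tmem106a* and *F8*. *Lgmn* encodes legumain, a lysosomal cysteine protease. Its root mean square difference from *Sepp1* was 0.17 log2 units, and its level was 27.1 to 411 RPKM in AEC libraries and 507 to 1047 RPKM in SEC libraries. *Tmem106a*, at 0.25 log2 units, had 6.32 to 77.2 RPKM in AECs and 113 to 212 RPKM in SECs. *F8* encodes coagulation factor VIII, which is made by sinusoidal endothelium of the liver. At 0.35 log2 units, it had 1.36 to 36.4 RPKM in AECs and 67.7 to 146 RPKM in SECs. In all 3 genes, dim library 3 was the highest of the AEC libraries, as it was for *Sepp1*. The 3 genes were picked for their nearness to *Sepp1* over these same libraries. That likeness therefore follows from the choice, and nothing is read from it.

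**Figure D2:**
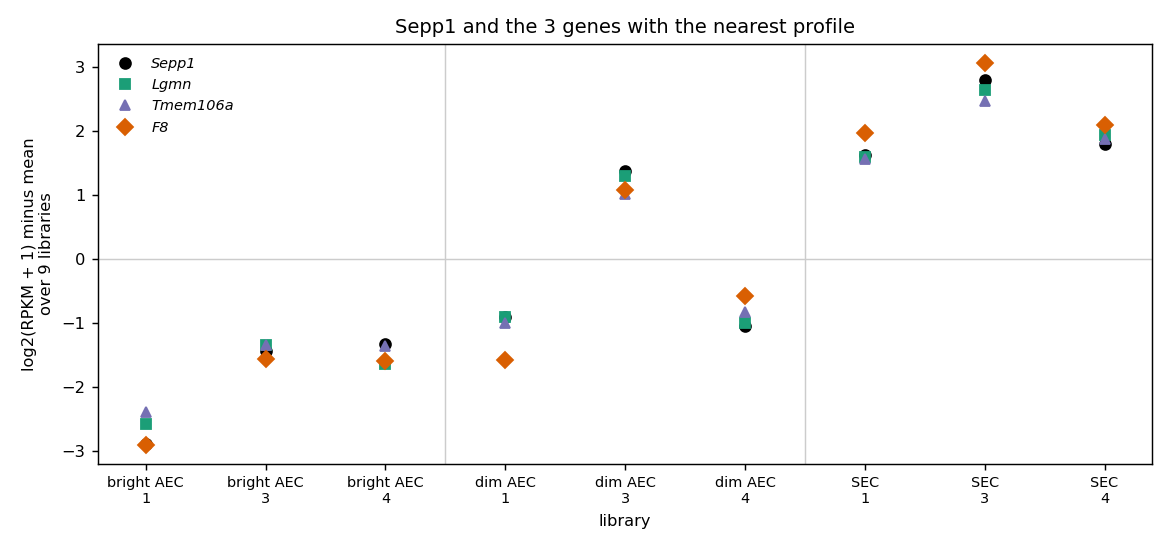
*Sepp1* and the 3 genes with the nearest profile, as log2(RPKM + 1) minus the mean over the 9 libraries. The 3 genes were picked for that nearness, so their likeness to *Sepp1* follows from the choice. Each point is a library; the 4 genes lie near each other in every library, with *Nestin*-GFPbright library 1 lowest, SEC library 3 highest and dim library 3 the only AEC library above the mean.

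The glutathione peroxidases showed 3 different patterns. *Gpx1* (chromosome 9, 108339080 to 108340338), the cytosolic enzyme that reduces hydrogen peroxide with glutathione, was the most abundant of the 10 genes in AECs. It had 1696, 1207 and 1131 RPKM in bright AEC libraries 1, 3 and 4 and 1638, 912 and 1243 RPKM in dim AEC libraries 1, 3 and 4, against 988, 671 and 845 RPKM in SEC libraries 1, 3 and 4. The bright AEC libraries all lay above the SEC libraries, whereas dim library 3 fell among them. How many of all genes had bright libraries above SEC libraries was not counted. The difference was 0.63 ± 0.34 (standard error) on the log2 scale for AECs against SECs, 0.68 ± 0.40 for bright AECs and 0.58 ± 0.40 for dim AECs against SECs.

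The highest and the lowest *Gpx1* levels stood beside high and low neutrophil transcripts, although libraries 3 and 4 of the AEC fractions did not keep that order. In each fraction library 1 had the most *Gpx1* and library 1 also had the most neutrophil marker reads, at 17.7%, 13.8% and 8.94% in bright AECs, dim AECs and SECs. SEC library 3, with the least *Gpx1*, had 0.00713%. With libraries 3 and 4 alone, the *Gpx1* difference between AECs and SECs was 0.57 ± 0.33, and the part of neutrophil RNA in the *Gpx1* values was not tested.

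*Gpx3* (chromosome 11, 54902453 to 54910377), the secreted peroxidase of plasma, was low and uneven. It had 12.8, 7.25 and 9.49 RPKM in bright AEC libraries 1, 3 and 4 and 8.50, 2.42 and 24.1 RPKM in dim AEC libraries 1, 3 and 4, against 11.7, 18.4 and 15.2 RPKM in SEC libraries 1, 3 and 4. The lowest and the highest value of the 9 were both in dim AECs, so the fractions overlapped throughout. The difference between AECs and SECs was -0.67 ± 0.54 on the log2 scale, and leaving out dim library 4 or dim library 3 in turn moved it to -1.03 and -0.31. Dim library 4 also had the most erythroid marker reads, 2.83% against 0.00995% in dim library 3, and their part in the *Gpx3* values was not tested.

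*Gpx4* (chromosome 10, 80047166 to 80056439), which reduces lipid peroxides within membranes and guards against ferroptosis, was the steadiest of the 10 genes. It lay between 102 and 110 RPKM in bright AECs and between 104 and 128 RPKM in dim AECs, against 111 to 141 RPKM in SECs. Across the 9 libraries the highest value was 1.39 times the lowest, and a smaller ratio was found in 0.739% of the genes tested. The difference between AECs and SECs was -0.18 ± 0.17 on the log2 scale. The bright AEC libraries all lay below the SEC libraries, by a margin smaller than the spread within SECs. How many of all genes had that order was not counted.

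*Txnrd1* (chromosome 10, 82859206 to 82897724) keeps cytosolic thioredoxin reduced. Its level was 24.9, 50.4 and 28.3 RPKM in bright AEC libraries 1, 3 and 4 and 18.8, 28.9 and 33.1 RPKM in dim AEC libraries 1, 3 and 4, against 20.8, 24.5 and 34.5 RPKM in SEC libraries 1, 3 and 4. The 3 fractions overlapped, with 1 bright library above all others. The difference between AECs and SECs was 0.17 ± 0.29. *Eid3* and 2 non-coding or unclassified loci overlap *Txnrd1* in GENCODE M21 and are not listed in the table. How many reads they held, and how reads in shared stretches were counted, is not known here.

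The enzymes without selenocysteine that act on superoxide and hydrogen peroxide differed little between fractions. *Cat* (chromosome 2, 103453849 to 103485160), the peroxisomal catalase, averaged 64.8 ± 8.48 in the 6 AEC libraries and 57.1 ± 11.03 RPKM in the 3 SEC libraries (± SD, n = 6 and n = 3), a difference of 0.19 ± 0.19 on the log2 scale. *Sod1* (chromosome 16, 90220742 to 90226322), the copper and zinc dismutase of the cytosol, averaged 145 ± 36.9 RPKM in AECs against 140 ± 37.1 RPKM in SECs, a difference of 0.04 ± 0.28. *Sod2* (chromosome 17, 13007839 to 13018119), the manganese dismutase of mitochondria, averaged 18.9 ± 2.21 RPKM in AECs against 22.5 ± 5.87 RPKM in SECs, a difference of -0.22 ± 0.19. For these 3 genes the AEC and SEC libraries overlapped, and each difference was at most 1.17-fold in the fit.

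*Sod1* varied within each fraction. It was 87.5 RPKM in bright AEC library 1 and 188 RPKM in bright AEC library 3, and SEC libraries 1, 3 and 4 covered nearly the same span, at 111, 182 and 128 RPKM. *Scaf4* overlaps *Sod1* on the other strand, with at most 2046 reads in a library.

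*Hmox1* (chromosome 8, 75093591 to 75100596) encodes the inducible haem oxygenase, which opens the haem ring and releases iron, biliverdin and carbon monoxide. It had 34.0, 55.3 and 33.1 RPKM in bright AEC libraries 1, 3 and 4 and 36.6, 106 and 26.3 RPKM in dim AEC libraries 1, 3 and 4, against 96.4, 267 and 171 RPKM in SEC libraries 1, 3 and 4. All AEC libraries but dim library 3 lay below the SEC libraries, and dim library 3 lay just above SEC library 1. The mean was 48.6 ± 29.8 in the 6 AEC libraries and 178 ± 85.5 RPKM in the 3 SEC libraries (± SD, n = 6 and n = 3).

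The *Hmox1* difference between AECs and SECs was -1.90 ± 0.48 on the log2 scale, with -2.02 ± 0.55 for bright AECs and -1.79 ± 0.55 for dim AECs against SECs. Leaving out dim library 3 gave -2.19 ± 0.36 for AECs against SECs, and leaving out SEC library 3 gave -1.55 ± 0.52. Between bright and dim AECs it was -0.24 ± 0.55, and 0.34 ± 0.45 without dim library 3, so no direction between the AEC fractions held across these choices. Macrophages of the marrow also express *Hmox1*. The macrophage markers summed to 13.9 to 96.1 RPKM in AEC libraries and to 5.65 to 64.7 RPKM in SEC libraries, over the 10 of 12 that were listed. Of these, *C1qb*, *Cd163*, *Siglec1*, *Spic* and *Cd5l* were at 0 reads in dim library 3, *C1qa*, *C1qc*, *Spic* and *Cd5l* in dim library 4, and *Cd5l* in bright library 3. The part of macrophage RNA in the *Hmox1* values was not tested.

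**Figure D3:**
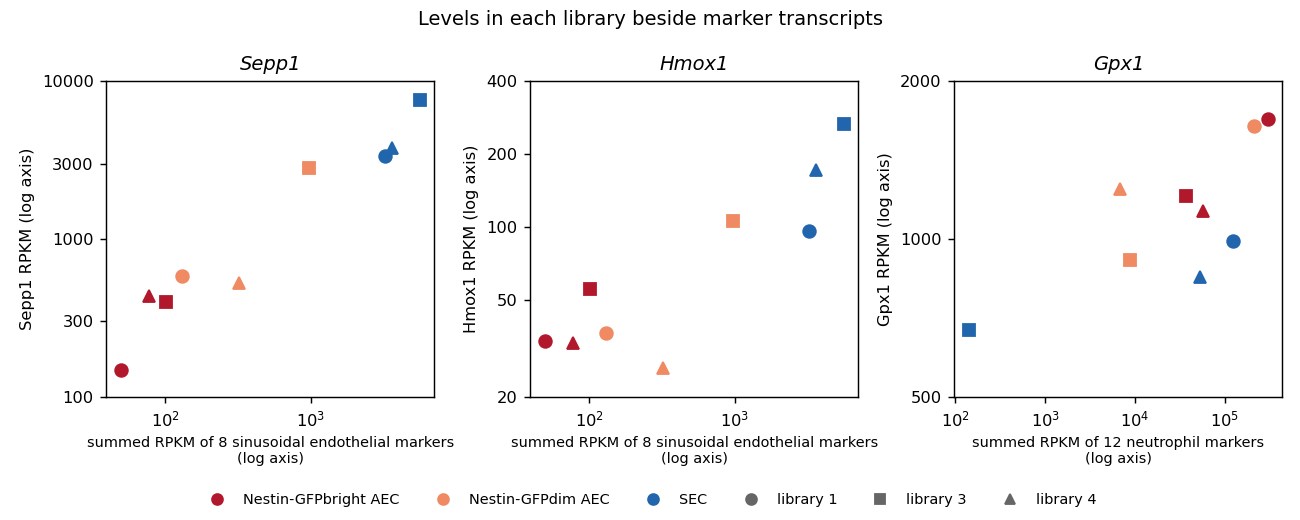
*Sepp1* and *Hmox1* beside the summed sinusoidal endothelial markers, and *Gpx1* beside the summed neutrophil markers, in RPKM on log axes; each point is 1 of 9 libraries. Dim library 3, with a sinusoidal sum of 975 RPKM, lies between the other AEC libraries and the SEC libraries along the horizontal axis of the *Sepp1* and *Hmox1* panels, and library 1 of each fraction has its highest *Gpx1* level.

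*Nqo1* (chromosome 8, 107388225 to 107403206) had the lowest mean of the 10 genes in both cell types. Its level was 5.54, 6.88 and 6.35 RPKM in bright AEC libraries 1, 3 and 4 and 10.3, 7.60 and 9.18 RPKM in dim AEC libraries 1, 3 and 4, against 6.24, 6.27 and 4.86 RPKM in SEC libraries 1, 3 and 4. All dim libraries lay above all bright libraries and above all SEC libraries, whereas bright and SEC libraries overlapped. Over all genes tested, 3.85% had the bright libraries below the dim libraries, and the share with dim libraries above SEC libraries was not counted. The difference was -0.46 ± 0.22 for bright against dim AECs, 0.56 ± 0.22 for dim AECs against SECs and 0.10 ± 0.22 for bright AECs against SECs. The fraction with the highest mean was therefore SECs for *Hmox1* and dim AECs for *Nqo1*.

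**Figure D4:**
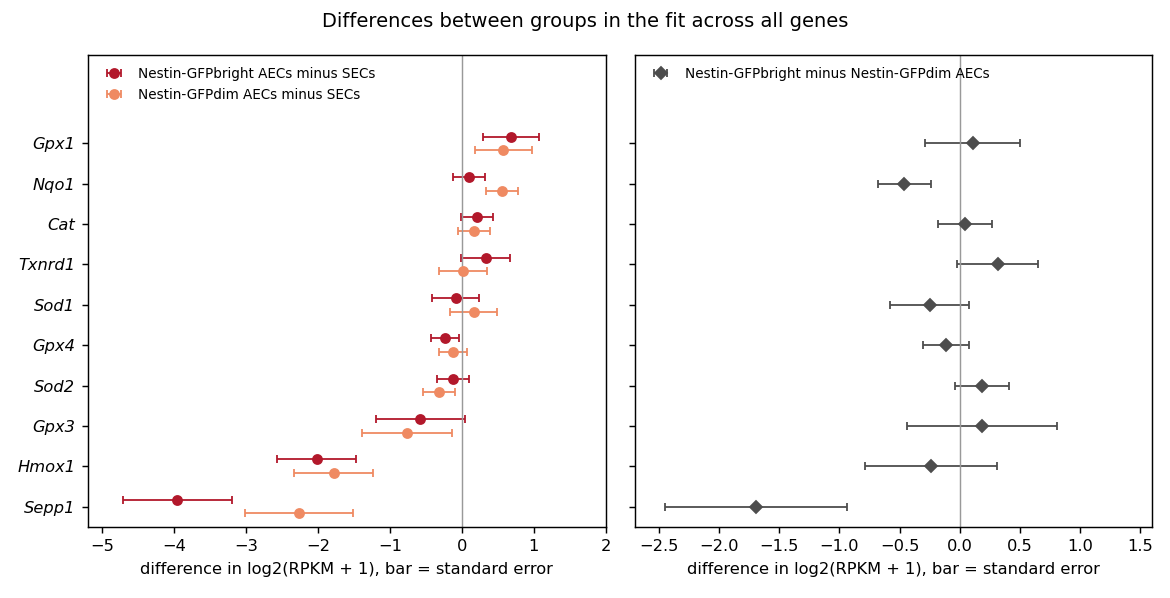
Difference of each of the 10 genes on the log2(RPKM + 1) scale, with its standard error. The left panel gives each AEC fraction minus SECs and the right panel bright minus dim AECs; *Sepp1* and *Hmox1* lie well below 0 on the left, while the other 8 genes lie between -0.76 and 0.68.

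Ordered by mean level per length, SECs had *Sepp1*, *Gpx1*, *Hmox1*, *Sod1*, *Gpx4*, *Cat*, *Txnrd1*, *Sod2*, *Gpx3* and *Nqo1*. AECs had *Gpx1*, *Sepp1*, *Sod1*, *Gpx4*, *Cat*, *Hmox1*, *Txnrd1*, *Sod2*, *Gpx3* and *Nqo1*. The library ranges of neighbours in the SEC order stood apart between *Sepp1* and *Gpx1*, *Gpx1* and *Hmox1*, *Gpx4* and *Cat*, *Cat* and *Txnrd1*, and *Gpx3* and *Nqo1*. In the AEC order they stood apart only between *Gpx4* and *Cat*, and all other neighbours overlapped.

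Around these genes, 7 lists of related genes were read from the same fit, in which limma called 4.93% of the 16364 genes between AECs and SECs (adjusted p under 0.05), 1.94% higher and 2.99% lower in AECs. Of 116 listed genes outside the 10, 110 were in the table and tested, and 4 of them (3.64%) passed: *Cp* was higher in AECs, and *Sod3*, *Ccs* and *Steap3* were lower. That share was close to the share of all genes. At an unadjusted p under 0.05 in limma stood 22 of the 110, beside 2407 of all genes (14.7%). The counts at an unadjusted p given below for single lists are to be set beside that 14.7%. The AEC and SEC libraries did not overlap for 4 genes higher and 9 genes lower in AECs, 11.8% of the lists beside 10.4% of all genes tested. Between bright AECs and SECs 3 of the 110 (2.73%) were called, all lower, beside 4.58% of all genes (1.74% higher and 2.85% lower). Between dim AECs and SECs 1 (0.909%) was called, lower, beside 1.95% of all genes (0.764% higher and 1.19% lower). With the library number as a block, 3 of the 110 (1 higher and 2 lower) were called between dim AECs and SECs, beside 3.94% of all genes. Between bright and dim AECs, limma called none of the 110 and none of all genes tested (0.0%), with 6 of the 110 and 803 of all genes (4.91%) at an unadjusted p under 0.05, and voom also called none. With the block, none of the 110 and 3 of all genes were called there. The split of all calls into higher and lower turned with the pseudocount for dim AECs, to 221 higher and 137 lower at 0.01 RPKM.

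The machinery that supplies selenium and inserts selenocysteine showed no call. None of its 13 tested genes passed between AECs and SECs by limma or by voom, with 2 at an unadjusted p under 0.05 in limma, and the median difference was -0.03 against 0.03 for all genes tested. *Lrp8*, a receptor that takes up selenoprotein P, was near the lower limit of the filter, with 0.170 ± 0.160 in the 6 AEC libraries and 0.460 ± 0.0423 RPKM in the 3 SEC libraries (± SD, n = 6 and n = 3). *Lrp1*, of the same receptor family, was also low and went the other way, at 0.450 ± 0.177 RPKM in AECs against 0.1765 ± 0.109 RPKM in SECs. *Sephs2*, which makes the selenium donor, averaged 32.0 ± 23.3 RPKM in AECs against 24.4 ± 12.2 RPKM in SECs. *Secisbp2*, which binds the insertion element of selenoprotein messages, averaged 4.14 ± 0.764 RPKM in AECs against 3.68 ± 0.538 RPKM in SECs.

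None of the 15 other selenoprotein genes tested passed by limma or voom, with 3 at an unadjusted p under 0.05 in limma. *Vimp* (selenoprotein S, of the endoplasmic reticulum) had its 6 AEC libraries below its 3 SEC libraries, at 44.0 ± 12.96 RPKM in AECs against 71.1 ± 11.2 RPKM in SECs, with adjusted p = 0.251 in limma. *Selm* (selenoprotein M) averaged 64.5 ± 21.3 RPKM in AECs against 31.6 ± 11.3 RPKM in SECs, with adjusted p = 0.245.

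In the glutathione system, none of 25 tested genes passed by limma or voom. An unadjusted p under 0.05 in limma was found for 6 of them, beside 14.7% of all genes tested. *Gstm1*, a glutathione transferase, had 117 to 222 RPKM in AEC libraries and 61.5 to 110 RPKM in SEC libraries, with a difference of 1.15 ± 0.29 and adjusted p = 0.0622. *Mgst1*, a microsomal glutathione transferase, had 124 to 298 RPKM in AEC libraries and 395 to 537 RPKM in SEC libraries, with a difference of -1.20 ± 0.35 and adjusted p = 0.107. Neither pair of ranges overlapped, and neither gene passed.

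None of the 15 thioredoxin and peroxiredoxin genes passed by limma or voom, with 3 at an unadjusted p under 0.05 in limma. *Txnip*, which binds and inhibits thioredoxin, had 240 to 500 RPKM in AEC libraries and 653 to 963 RPKM in SEC libraries, with a difference of -1.18 ± 0.31 and adjusted p = 0.0756. *Prdx3*, the peroxiredoxin of mitochondria, averaged 52.6 ± 17.4 RPKM in AECs against 92.3 ± 11.4 RPKM in SECs, with adjusted p = 0.167.

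None of the 17 genes of the Nrf2 pathway and NADPH supply passed by limma or voom, with 1 at an unadjusted p under 0.05 in limma. *Nfe2l2*, the gene of Nrf2 itself, averaged 77.9 ± 20.3 RPKM in AECs against 69.4 ± 13.7 RPKM in SECs. *Bach1*, the repressor that holds down *Hmox1* until haem binds it, averaged 2.63 ± 0.383 RPKM in AECs against 3.48 ± 1.05 RPKM in SECs, with a difference of -0.29 ± 0.23.

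**Figure D5:**
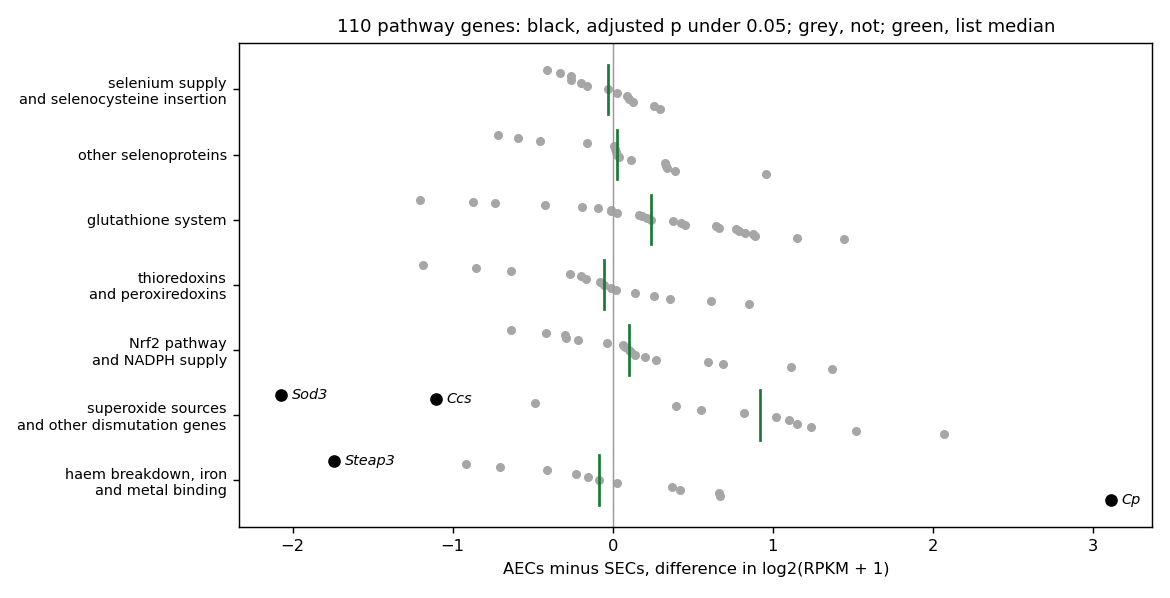
Difference between AECs and SECs on the log2(RPKM + 1) scale for 110 tested genes of 7 lists, each point a gene. Black points passed the test (*Sod3*, *Ccs*, *Steap3* below 0 and *Cp* above) and grey points did not; a green line marks the median of each list.

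Of 12 genes that make superoxide or serve its dismutation, 2 passed, both lower in AECs. *Ccs*, the chaperone that loads copper into *Sod1*, had 24.6, 36.3 and 37.5 RPKM in bright AEC libraries 1, 3 and 4 and 27.1, 42.0 and 35.3 RPKM in dim AEC libraries 1, 3 and 4, against 67.3, 90.1 and 63.3 RPKM in SEC libraries 1, 3 and 4. All AEC libraries lay below all SEC libraries, a difference of -1.11 ± 0.22 (limma, adjusted p = 0.0266), while the *Sod1* libraries overlapped as given above. Leaving out dim library 4, SEC library 1, 3 or 4 gave adjusted p values of 0.0558, 0.0881, 0.155 and 0.0913, so the call was lost although the difference stayed between -1.20 and -0.95.

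*Sod3*, the extracellular dismutase, was below the level set for naming genes and is named after its values were seen. It had 0.386 to 0.922 RPKM in bright AEC libraries and 0, 1 and 154 reads (at most 1.04 RPKM) in dim AEC libraries 1, 3 and 4, against 4.42 to 5.80 RPKM in SEC libraries. All AEC libraries lay below all SEC libraries. The difference was -2.07 ± 0.27 (limma, adjusted p = 0.00413), and it passed when any 1 library was left out, but not with a pseudocount of 0.01 RPKM in place of 1 (-4.57, adjusted p = 0.0935). The genes of the phagocyte NADPH oxidase did not pass. *Cybb*, its catalytic subunit, had 9.81 to 359 RPKM in AEC libraries and 0.210 to 150 RPKM in SEC libraries, with SEC library 3, lowest in neutrophil markers, lowest here as well. The median of the list was 0.92 against 0.03 for all genes, and some of its genes, *Cybb* and *Rac2* among them, are abundant in neutrophils, whose part in that median was not tested.

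Of 13 genes of haem breakdown, iron and metal binding, 1 was called higher and 1 lower in AECs. *Cp*, the ferroxidase ceruloplasmin, had 3.26 to 35.4 RPKM in AEC libraries and 0.371 to 0.496 RPKM in SEC libraries, a difference of 3.11 ± 0.72 (limma, adjusted p = 0.0466). *Steap3*, an endosomal ferrireductase, had 0.867 to 8.79 RPKM in AEC libraries and 11.7 to 14.4 RPKM in SEC libraries, a difference of -1.74 ± 0.32 (limma, adjusted p = 0.0191), with dim library 3 again the highest of the AEC libraries. For both genes the AEC and SEC libraries did not overlap. The summed smooth muscle and pericyte markers and the summed arterial markers, given above, did not overlap either and were higher in AECs like *Cp*. Single genes of both lists, such as *Tagln* and *Sox17*, did overlap. The part of smooth muscle and pericyte RNA in the *Cp* values was not tested.

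The *Cp* call was lost without bright library 3, bright library 4, dim library 3, or SEC library 1, 3 or 4 (adjusted p = 0.103, 0.106, 0.056, 0.149, 0.179 and 0.184). The *Steap3* call was lost without SEC library 1, 3 or 4 (adjusted p = 0.0739, 0.111 and 0.0913). The genes that act after *Hmox1* did not pass. *Blvrb*, a biliverdin reductase, averaged 51.6 ± 32.5 RPKM in AECs against 70.2 ± 7.74 RPKM in SECs. *Fth1*, the ferritin heavy chain that stores iron, averaged 2064 ± 817 RPKM in AECs against 2603 ± 399 RPKM in SECs, and *Slc40a1*, the iron exporter ferroportin, averaged 13.7 ± 12.5 RPKM in AECs against 20.4 ± 5.64 RPKM in SECs.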

How the data were processed

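RNA of sorted bone marrow endothelial cells was amplified by oligo-dT primed cDNA synthesis (SMART-Seq v4), made into libraries with a kit that does not mark strand, and sequenced as single reads. STAR alignments were counted by HTSeq, and the authors deposited log2 RPKM values made in edgeR (version 3.12.0 per the submitters' processing notes) after TMM scaling. Those notes name mm9, whereas 99.88% of the deposited gene positions found in GENCODE M21 overlapped the same gene on GRCm38. The gene positions printed here are the deposited ones, and the selenocysteine stretches come from GENCODE M21 on GRCm38. Whole reads were recovered from the deposited values for 155079 of 155088 (99.994%, within 0.0001 reads), after removing a prior of 0.25 reads. The 9 exceptions all belonged to *Bmx*. Reads carry no molecular identifiers, so depth speaks for counting error only.

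RPKM values were tested as log2(RPKM + 1) in limma 3.58.1 (R 4.3.3) with a trended variance, all 9 libraries and 3 groups in 1 fit and no replicate block, on the 16364 genes that reached 0.1 RPKM in 3 or more libraries. Calls had a Benjamini-Hochberg adjusted p under 0.05. AECs were the mean of bright and dim AECs, and the comparisons with SECs share the SEC libraries. A fold change on this scale understates the change of low genes. The 10 genes, the marker lists and the pathway lists were chosen with earlier results of these data known. Pathway genes were named where called between AECs and SECs with at least 10 RPKM on average in the higher cell type, and values of others are given as examples chosen after their values were seen. Profiles were compared only for a gene whose AEC and SEC libraries did not overlap. Alternatives were other pseudocounts, filters and scalings, voom on recovered reads, a replicate block, libraries 3 and 4 alone, and leaving out each library. Deviations of same-numbered libraries from their group means correlated at 0.155 to 0.784 between bright and dim AECs and at 0.122 to 0.778 between dim AECs and SECs, over 0.1 in all 3 pairs of each, so counts with the block are given beside these comparisons. Different-numbered libraries correlated at -0.713 to 0.498 between bright and dim AECs and at -0.704 to 0.285 between dim AECs and SECs. Bright library 3 correlated more with dim library 4 (0.498) than with dim library 3 (0.424). Dim library 4 correlated more with SEC library 3 (0.285) than with SEC library 4 (0.122). Pairing by number is therefore an assumption, since the labels do not say what a number marks. Between bright AECs and SECs the same-numbered correlations were -0.212 to 0.708. Tables and figures were made with matplotlib 3.10.9, pandas 2.3.3 and numpy 2.4.6 under Python 3.11.15. Listed genes absent from the table, among them *Lrp2*, *Gpx2* and *Nox4*, were not analysed here. The authors state that 17232 genes remained after they removed genes with few reads. A gene may thus be absent because it had few reads.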

Additional observations from a re-analysis of the deposited data

How the results depend on the processing

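Of the 10 genes, 9 kept the sign of their difference between AECs and SECs under all 18 alternatives, and *Sod1*, at 0.04, changed sign in 6. The alternatives reuse most of the same libraries, and how many of all genes kept their sign was not counted. Nothing is therefore read from that count. Some of the 9 came close to 0, with *Txnrd1* down to 0.02 and *Sod2* up to -0.03. *Sepp1* stayed between -3.50 and -2.75 and *Hmox1* between -2.28 and -1.55. The median difference of all genes shifted most, by -0.05, with each library shifted to 1 median. The number of genes called between AECs and SECs was 807, with 317 higher and 490 lower. It was 1333 with the replicate block and 262 to 968 when 1 library was left out. Without bright library 4 it was 491, and without SEC library 1, 3 or 4 it was 444, 275 and 262. The split was 397 higher and 386 lower with a pseudocount of 0.01 RPKM, 360 and 287 with libraries 3 and 4 alone, and 477 and 491 without bright library 1. For bright AECs against SECs, 750 genes became 1391 with the block and 277 to 882 without 1 library. The split of 284 higher and 466 lower was 373 and 399 with a pseudocount of 0.01 RPKM, 385 and 325 with libraries 3 and 4 alone, and 481 and 401 without bright library 1. For dim AECs against SECs, 319 became 136 by voom, 172 with libraries 3 and 4 alone, 644 with the block and 64 to 417 without 1 library. Its split of 125 higher and 194 lower was 215 and 171 with a pseudocount of 0.1 RPKM, 221 and 137 with 0.01 RPKM, and 120 and 52 with libraries 3 and 4 alone. Between bright and dim AECs, 0 became 1 with a pseudocount of 0.01 RPKM, 1 with a filter at 1 RPKM, 3 with the block and 0 to 1 without 1 library. The 4 pathway genes called became 2 with each library shifted to 1 median and 1 to 9 without 1 library. With the replicate block they became 11 of 110, beside 1333 of 16364 genes. For bright AECs against SECs, the 3 pathway genes called became 12 of 110 with the block (10.9%, 5 higher and 7 lower), beside 8.5% of all genes. The cause of these shifts was not tested. Between bright AECs and SECs 1 of the 3 same-numbered pairs correlated negatively (-0.212), so for that comparison, and for all AECs against SECs, the numbers were not taken as pairs. The *Ccs* call was also lost with each library shifted to 1 median (adjusted p = 0.0662) and with libraries 3 and 4 alone (0.0924), where *Steap3* was lost as well (0.0976). The *Cp* call was also lost with no filter (0.0507), quantile normalization (0.059), the median shift (0.0511) and voom (0.0594). With 3 libraries a fraction, differences near their standard error cannot be placed on either side of 0.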

Other observations

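*Nestin*-GFPdim AEC library 4 had the highest level of the 9 libraries for several genes of the lists, *Gpx3* among them at 24.1 RPKM. *Gclc* and *Gclm*, the subunits of the enzyme that starts glutathione synthesis, were at 21.3 and 16.3 RPKM there. The metallothioneins *Mt1* and *Mt2* were at 292 and 53.4 RPKM. The same library had the highest sum of erythroid markers, 33900 RPKM, against 65.7 to 9394 RPKM in the other 8 libraries. Whether these values share a source was not tested.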
